A study of Mus musculus with 6 samples.

Results

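CXC chemokines are small secreted proteins that steer leukocytes, and 9 genes of the family that macrophages are known for were followed here: Cxcl1, Cxcl2, Cxcl3, Cxcl9, Cxcl10, Cxcl11, Cxcl14, Cxcl16 and Pf4. They were taken by gene symbol. They had 14 probes, out of 19057 genes named by 1 symbol on the array, and 7 of the 9 genes were among the 8205 genes measured above background. Wild-type macrophages, grown from the bone marrow of c57Bl6/J mice (10 week old males), were given RI-BPI at 5 µM, or a control peptide at the same dose, for 12 h in MSF media, with 3 Illumina bead arrays for each peptide. RI-BPI is a retro-inverso peptide made to block the binding of corepressors to the transcriptional repressor Bcl6, and the comparison asks which transcripts change with it. Per the labels, arrays 1 to 3 of each peptide are technical replicates, and no separate cultures or animals are named. The p-values below thus rest on array-to-array spread, which the labels describe as technical. They do not measure spread between cultures or animals.

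The family divides by structure and by the cells it attracts. Cxcl1, Cxcl2 and Cxcl3 carry a glutamate-leucine-arginine motif ahead of the paired cysteines, bind Cxcr2 and draw neutrophils, and NF-kB drives their transcription in activated macrophages. Cxcl9, Cxcl10 and Cxcl11 lack that motif, bind Cxcr3 on T cells and NK cells, and are induced by interferons. Cxcl16 is made as a membrane-bound protein that also takes up oxidised lipoprotein and, once shed, attracts cells bearing Cxcr6. Pf4 is the platelet factor stored in platelet granules and is also transcribed in macrophages. Cxcl14 is best known from epithelia. Bcl6 is known as a brake on inflammatory genes in macrophages.

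The promoter windows of 7 of the 9 genes were matched in RefSeq (build GRCm38.p6), each from 250 bases before to 50 after the annotated start, and the 5 below are shown because the detected neutrophil-attracting and interferon-type genes moved in opposite directions. They are written 5′ to 3′ on the strand of the gene. Capitals mark matches to an NF-kB motif, GGGNNNTNCC, or to an interferon-stimulated response element (ISRE), TTTCNNTTTC, on either strand.

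Cxcl1, chr5:90890995-90891294, plus strand: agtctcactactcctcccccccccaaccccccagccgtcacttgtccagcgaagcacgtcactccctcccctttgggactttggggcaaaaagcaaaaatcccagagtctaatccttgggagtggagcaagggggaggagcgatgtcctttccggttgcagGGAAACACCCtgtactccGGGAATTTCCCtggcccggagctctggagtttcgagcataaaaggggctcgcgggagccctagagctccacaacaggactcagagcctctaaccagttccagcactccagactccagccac

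Cxcl2, chr5:90903649-90903948, plus strand: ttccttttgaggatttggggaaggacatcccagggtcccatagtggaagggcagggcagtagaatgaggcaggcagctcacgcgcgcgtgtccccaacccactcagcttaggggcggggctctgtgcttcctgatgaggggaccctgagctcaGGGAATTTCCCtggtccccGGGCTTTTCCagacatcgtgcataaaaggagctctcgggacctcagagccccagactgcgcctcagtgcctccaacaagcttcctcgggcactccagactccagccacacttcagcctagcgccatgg

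Cxcl3, chr5:90785851-90786150, plus strand: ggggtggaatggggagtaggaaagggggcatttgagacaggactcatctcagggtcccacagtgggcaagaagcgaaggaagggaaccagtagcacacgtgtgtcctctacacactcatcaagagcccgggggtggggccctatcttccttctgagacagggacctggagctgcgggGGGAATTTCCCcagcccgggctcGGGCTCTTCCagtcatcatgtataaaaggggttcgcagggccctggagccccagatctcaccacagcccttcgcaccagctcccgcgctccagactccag

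Cxcl10, chr5:92348840-92349139, minus strand: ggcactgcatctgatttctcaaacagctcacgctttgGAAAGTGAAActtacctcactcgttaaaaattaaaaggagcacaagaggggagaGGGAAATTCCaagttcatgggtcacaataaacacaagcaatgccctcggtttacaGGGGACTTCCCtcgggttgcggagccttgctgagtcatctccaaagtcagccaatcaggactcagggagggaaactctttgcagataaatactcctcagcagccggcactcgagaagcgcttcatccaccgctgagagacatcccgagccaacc

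Cxcl9, chr5:92328030-92328329, minus strand: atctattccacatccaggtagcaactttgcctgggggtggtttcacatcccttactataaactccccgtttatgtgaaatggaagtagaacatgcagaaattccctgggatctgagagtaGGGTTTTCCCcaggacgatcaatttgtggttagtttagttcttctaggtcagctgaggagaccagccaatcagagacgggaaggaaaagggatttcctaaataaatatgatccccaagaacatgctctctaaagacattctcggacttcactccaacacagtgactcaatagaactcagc

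The windows of Cxcl1, Cxcl2 and Cxcl3 held the same 11-base stretch, GGGAATTTCCC, starting 71, 97 and 73 bases before the start site. That stretch reads as an NF-kB match on both strands and occurred in 14 of 32851 promoter windows of the genome (0.0426%). Each of these windows held a second match, GGAAACACCC in Cxcl1, GGGCTTTTCC in Cxcl2 and GGGCTCTTCC in Cxcl3. The Cxcl10 window held 2 NF-kB stretches, GGGAAATTCC and GGGGACTTCCC, and 1 ISRE match, GAAAGTGAAA, 213 bases before the start. The stretch GGGGACTTCCC also held matches on both strands and was as rare, in 13 windows (0.0396%). The Cxcl9 window held 1 NF-kB match, GGGTTTTCCC. An NF-kB match was present in 17.4% of all windows and an ISRE match in 3.44%. A STAT (GAS) site, TTCNNNGAA, occurred in 8.3% of all windows, and the Bcl6-type motif TTCCTNGAA, a narrower form of it, in 1.59%. Neither was found in the 5 windows shown. The Cxcl14 window had 1 ISRE match and 1 STAT match, and the Pf4 window matched none of the 4 motifs. A match is a sequence only, and binding was not measured.

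**Figure D1:**
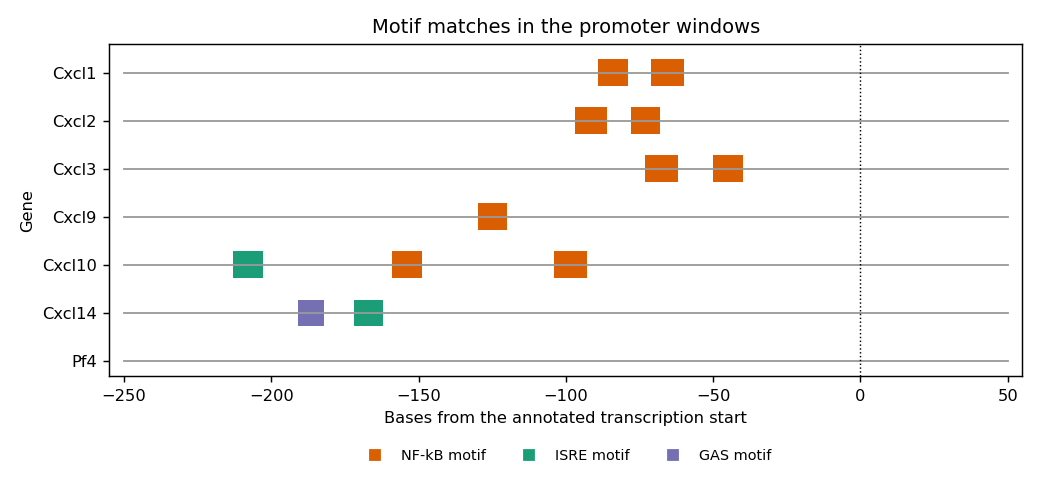
Matches to the NF-kB, ISRE and STAT (GAS) motifs in the promoter windows of 7 CXC chemokine genes, one line per gene, against the distance in bases from the annotated transcription start. Cxcl1, Cxcl2 and Cxcl3 each have 2 NF-kB stretches within 97 bases of the start, Cxcl10 has 2 and an ISRE match, and Pf4 has none. The Bcl6-type motif was searched and had no match.

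The cells had the RNA of macrophages. Of 10 macrophage markers, 9 had a named probe, and all 9 were detected on each control array against 8 on each RI-BPI array. A probe counts as detected at a detection p-value under 0.01. The marker not detected with RI-BPI was Itgam, which was at least 1.62-fold lower. The summed brightest-probe signal of these markers was 47912 to 54238 with RI-BPI and 55365 to 61445 with control, and 5 of the 9 fell, where 30.6% of all 8205 measured genes were called lower. The Fc receptor Fcgr1 led them (-1.73 ± 0.11, log2 change ± SE). Over the whole array, 12931 to 13843 probes were detected per RI-BPI array and 13866 to 14357 per control array, of 45281. The part of these differences in the results below was not tested. Changes below are on a log2 scale after background correction and quantile normalization, and a gene was called where limma's Benjamini-Hochberg adjusted p was under 0.05.

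The neutrophil-attracting pair rose most. Cxcl1 rose 12.9-fold and Cxcl2 6.11-fold, Cxcl14 and Cxcl16 rose 1.57-fold and 1.40-fold, and Cxcl9, Cxcl10 and Pf4 fell. These changes are those of the brightest probe of each gene. Of the 7 measured genes 4 were called higher and 3 lower, and all 7 were detected on every array of both peptides. Among all 8205 genes, 61.3% were called, 30.7% higher and 30.6% lower, so being called sets none of these genes apart from the rest. Fewer genes, 0.792% of all, rose at least 4-fold, and Cxcl1 and Cxcl2 were among them. Since the assay reads bulk RNA, fewer cells of a type and less RNA per cell cannot be told apart. Each level is that of its own probe and is not set against the level of another.

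Cxcl1 (probe ILMN_2763245) gave bead intensities of 2005, 1679 and 1834 on the RI-BPI arrays, against 159.9, 208.6 and 161.7 on the control arrays. The dimmest RI-BPI array was well above the brightest control array. Cxcl1 rose by 3.69 ± 0.12 (SE, n = 3 arrays each), 12.9-fold, with an adjusted p of 7.6e-15 in limma and the 10th highest change of all 8205 genes. The log2 level was 10.83 ± 0.12 with RI-BPI and 7.14 ± 0.23 with control (SD).

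Cxcl2 had 2 probes, and both rose. The brighter one (ILMN_2778289) read 4013, 4111 and 3255 with RI-BPI, against 629.6, 700.4 and 677.0 with control. The dimmer one (ILMN_2811154) read 896.0, 835.2 and 739.4 with RI-BPI, against 131.2, 126.6 and 119.1 with control. At neither probe did the groups overlap. The rise was 2.61 ± 0.11 (6.11-fold, adjusted p = 2.8e-13 in limma) at the brighter probe, the 28th highest change of all genes, and 3.11 ± 0.11 (8.65-fold) at the dimmer. Adjusted over all 13975 kept probes, of which 59.5% were called, the p of the dimmer probe was 2.12e-14.

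Cxcl3, the near relative of both that stands in the same gene cluster, was not detected. Its probe read 45.13, 40.50 and 44.57 with RI-BPI and 41.12, 41.18 and 47.60 with control, in the range of the background. The lowest of its 6 detection p-values was 0.20. The median of probes with a detection p of at least 0.5 was 40.6 to 42.4 per array. A transcript below this limit cannot be told from none, and no fold is given. The 3 genes are alike in sequence, probe sequences were not used here, and cross-hybridisation between them was not tested.

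**Figure D2:**
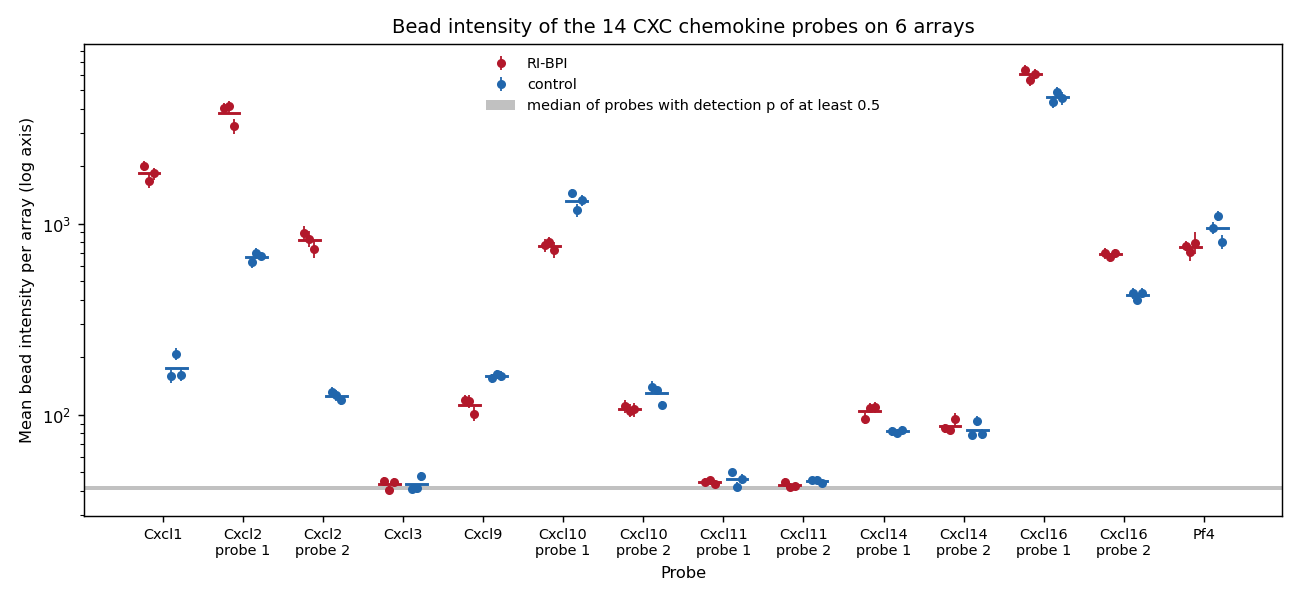
Mean bead intensity (log axis) of the 14 CXC chemokine probes on the 3 RI-BPI arrays and the 3 control arrays. Points are arrays with the standard error over their beads, short lines are group means, and the grey band is the background. Cxcl1 and both probes of Cxcl2 are higher on every RI-BPI array, and the probes of Cxcl3 and Cxcl11 lie at background.

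The Cxcr3 ligands went the other way. Cxcl10, the interferon-induced attractant of T cells, read 772.3, 800.8 and 730.3 at its brighter probe (ILMN_3142803) with RI-BPI, against 1446, 1174 and 1324 with control. The groups did not overlap, and Cxcl10 fell by 0.78 ± 0.11 (1.71-fold lower, adjusted p = 7.66e-06 in limma). Its dimmer probe (ILMN_1214419) read 110.8, 105.3 and 106.7 with RI-BPI and 140.3, 134.9 and 113.3 with control. On the normalized scale those groups overlapped, and the change of -0.21 ± 0.11 did not pass (adjusted p = 0.126 over all probes in limma). The 95% intervals of the 2 probes, -1.01 to -0.54 and -0.44 to 0.03, did not overlap, so the size of the decrease is not settled by these probes.

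Cxcl9, which is known to be induced mainly by interferon gamma, had 1 probe (ILMN_1215862). It read 119.9, 118.2 and 101.5 with RI-BPI, against 155.3, 163.2 and 159.4 with control, without overlap. The gene fell by 0.51 ± 0.11 (1.42-fold lower, adjusted p = 0.000459 in limma). Cxcl11 was not detected at either of its 2 probes, whose readings lay between 41.8 and 45.6 with RI-BPI and between 42.1 and 50.1 with control. The RefSeq table, which is built on C57BL/6J, lists Cxcl11 as a transcribed pseudogene.

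Cxcl16 was bright and rose at both probes. The brighter (ILMN_2687586) read 6385, 5645 and 6098 with RI-BPI, against 4349, 4872 and 4544 with control. The other (ILMN_1254723) read 700.6, 670.1 and 700.8 with RI-BPI, against 432.8, 400.1 and 434.0 with control. The groups were apart at both. The rise was 0.49 ± 0.11 (1.40-fold, adjusted p = 0.000676 in limma) at the brighter probe and 0.79 ± 0.11 (1.73-fold) at the other.

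Cxcl14 was dim, and its probes gave different calls. Probe ILMN_2760800 read 95.57, 108.3 and 110.0 with RI-BPI and 82.09, 80.00 and 83.41 with control, with no overlap, and rose by 0.65 ± 0.12 (1.57-fold, adjusted p = 0.00011 in limma). With the values of the authors' normalized table, to which 16 was added before the log2 step, that rise was 0.38. Probe ILMN_2659426 read 84.96, 83.37 and 94.85 with RI-BPI and 78.27, 92.71 and 79.42 with control. There the groups overlapped, and the change of 0.27 ± 0.12 did not pass (adjusted p = 0.0749 over all probes).

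Pf4 read 766.5, 709.4 and 796.5 with RI-BPI and 952.0, 1099 and 803.4 with control, at its single probe. On the normalized scale the highest RI-BPI array and the lowest control array overlapped, which set Pf4 apart from the other 6 brightest probes, none of which overlapped (64.9% of all genes did not overlap). Pf4 fell by 0.31 ± 0.12 (1.24-fold lower, adjusted p = 0.0311 in limma, 95% interval -0.56 to -0.06). The call was lost without any one of 4 arrays: RI-BPI replicate 1 (adjusted p = 0.0838), RI-BPI replicate 2 (0.107), control replicate 1 (0.0648) or control replicate 2 (0.181, with a change of -0.21). Of 8 markers of megakaryocytes and platelets with a named probe, 6 were undetected on every array, among them Itga2b, Gp9 and the platelet chemokine Ppbp. The other 2 were Vwf, which rose by 1.16 ± 0.12, and Treml1, which fell by 0.30 ± 0.12 and was detected on 1 of 3 RI-BPI arrays. Their summed signal was 689.5 to 802.1 with RI-BPI and 512.0 to 577.3 with control.

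**Figure D3:**
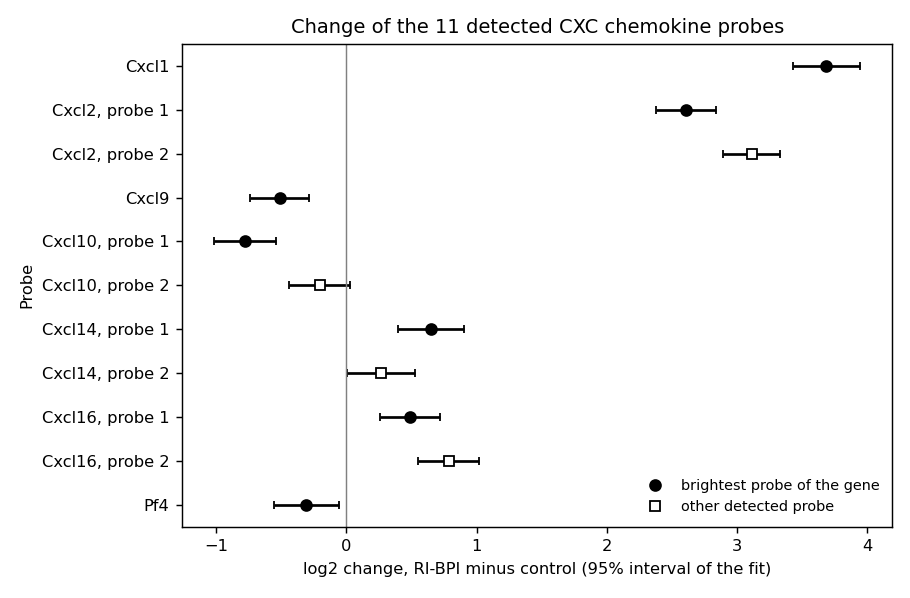
log2 change (RI-BPI minus control) with the 95% interval of the fit for the 11 detected CXC chemokine probes, one row per probe. Filled circles are the brightest probe of a gene and open squares its other probe. Cxcl1 and Cxcl2 lie between 2.61 and 3.69, and all other probes lie within 0.79 of 0.

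Each reading averaged 29 to 65 beads. Over the 11 detected probes the coefficient of variation between arrays of a peptide was 2.10% to 15.6%, and the mean bead standard error was 5.01% to 9.56%. For Cxcl1 the coefficient of variation between arrays was 8.89% with RI-BPI and 15.6% with control, beside a mean bead standard error of 7.17% and 7.51%. For Pf4 these were 5.84% and 15.6% between arrays and 9.56% and 7.26% over beads.

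**Figure D4:**
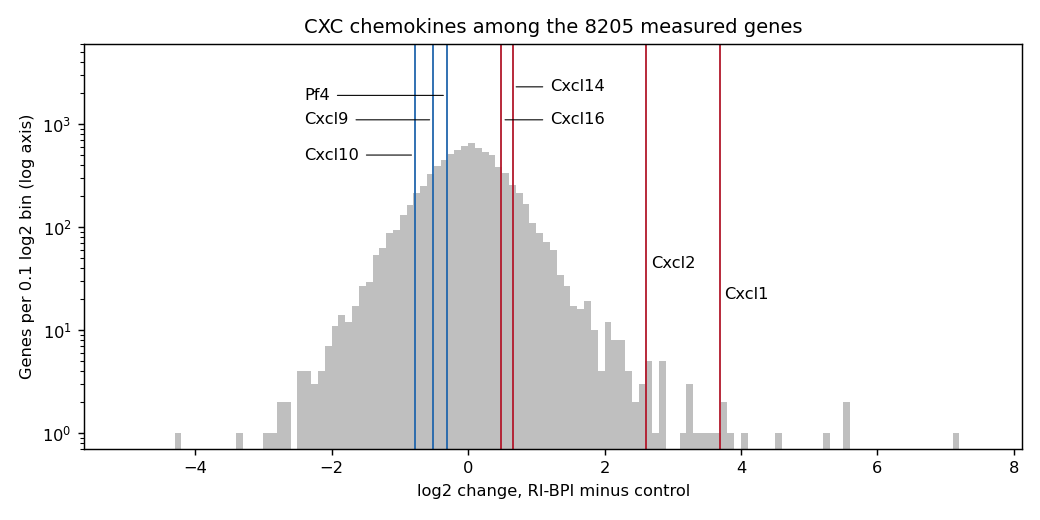
Histogram of the log2 change (RI-BPI minus control) of all 8205 measured genes, with the count per 0.1 bin on a log axis and the 7 measured CXC chemokines as lines. Cxcl1 and Cxcl2 lie in the upper tail, and the other 5 lie within the bulk of genes.

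Neighbouring genes of the family did not all move the same way. Among RefSeq protein-coding genes and transcribed pseudogenes of chromosome 5, ordered by start position, Pf4, Cxcl3, Cxcl15, Cxcl1 and Cxcl2 follow one another. Of these Pf4 fell, Cxcl3 and the lung chemokine Cxcl15 were undetected, and Cxcl1 and Cxcl2, whose windows lie 12.7 kb apart, rose. The windows of Pf4 and Cxcl3 lie 13.7 kb apart. Cxcl9 and Cxcl10, whose windows lie 20.8 kb apart, both fell. In the same order of starts Art3 comes between them and Cxcl11 follows Cxcl10. Overlap of gene bodies was not examined.

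The other ligands and the receptors of the family were mostly below detection. The 5 further CXC ligands with a named probe, Cxcl12, Cxcl13, Cxcl15, Cxcl17 and Ppbp, were undetected on all 6 arrays. Of 8 receptors with a probe, 7 were undetected, including the neutrophil receptor Cxcr2 and the Cxcl9 and Cxcl10 receptor Cxcr3. The exception was Cxcr4, the receptor of Cxcl12, which rose by 1.24 ± 0.18 (2.36-fold), with log2 levels of 10.28 ± 0.51 with RI-BPI and 9.04 ± 0.18 with control (SD, n = 3 each; adjusted p = 5.82e-06 in limma). Its spread among RI-BPI arrays was wider than that of any CXC ligand measured.

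Of 9 listed proteases that cut CXC chemokines, 5 were measured, of which 2 rose and 3 fell, beside 30.7% of all genes called higher and 30.6% lower. The collagenase Mmp13 rose by 3.50 ± 0.11 (1.36 at another probe) and macrophage elastase Mmp12 by 1.15 ± 0.11. Gelatinase B, Mmp9, fell by 0.66 ± 0.12 and was detected on 1 of 3 RI-BPI arrays, and Mmp14 fell by 0.35 ± 0.12. Adam17, a shedding protease named after its value was seen, fell by 0.35 ± 0.12, with -1.02 at another probe. Adam10, known to shed Cxcl16, was undetected at both of its probes.

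Of 14 measured regulators of the NF-kB pathway and of chemokine mRNA decay, 11 were higher and 1 was lower, and 2 did not pass, where 30.7% of all genes were called higher and 30.6% lower. Their median change was 0.55, against 0.01 over all genes. The list was chosen with earlier results of these data known and was not tested as a set. With the mean of a gene's probes that passed the detection filter, 10 were higher and 1 was lower. Rel, an NF-kB subunit, rose by 1.82 ± 0.12 and Tnfaip3, which encodes the NF-kB inhibitor A20, by 1.53 ± 0.10. The member that fell was Zfp36l1 (-1.16 ± 0.13, and -1.05 at another probe), an RNA-binding protein that promotes decay of AU-rich mRNAs. Its relative Zfp36, or tristetraprolin, named after its value was seen, was at -0.01 ± 0.12 and not called.

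Of 13 measured regulators on the interferon side, 5 were higher, 4 lower, and 4 did not pass, shares near those of all genes (30.7% higher and 30.6% lower). Their median change was 0.23. The interferon beta gene Ifnb1 rose by 2.65 ± 0.11, with detection on only 1 of 3 control arrays. The transcription factors Irf7 and Stat2 fell, with changes of -1.25 ± 0.11 and -1.14 ± 0.12. Ifngr2, a chain of the interferon gamma receptor, rose by 1.39 ± 0.10 at its brightest probe, but its other probes gave -0.80 and -0.71, so its direction is not settled. With median centring, or with the mean of a gene's probes that passed the detection filter, the number that rose was 2. It was 3 without RI-BPI replicate 1, without control replicate 2 or without control replicate 3.

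**Figure D5:**
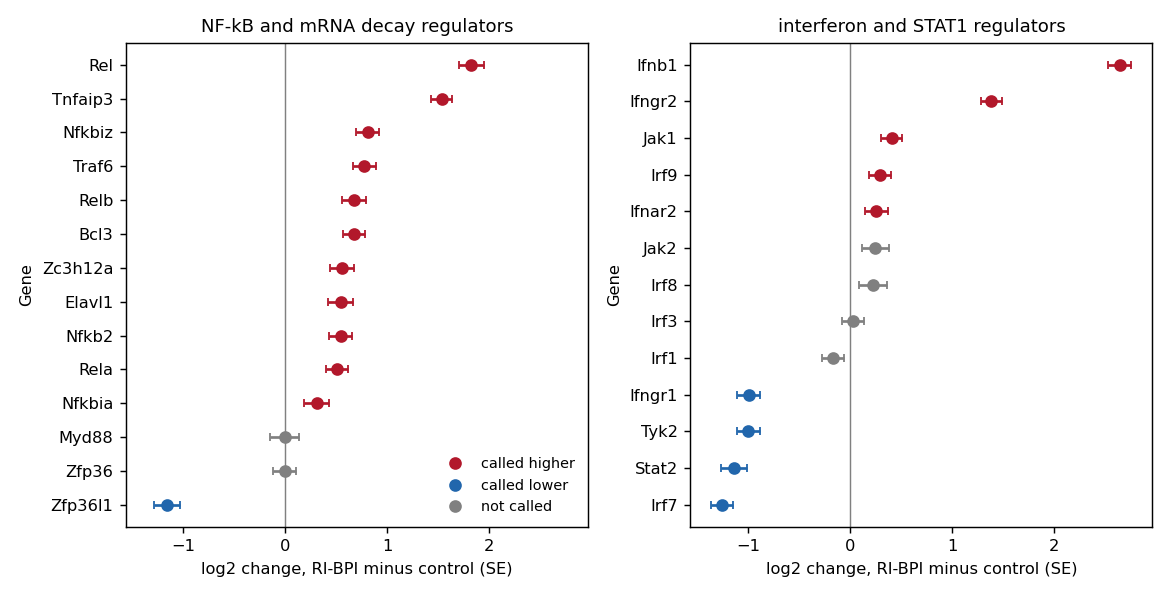
log2 change (RI-BPI minus control) with its standard error for the 14 measured regulators of NF-kB and mRNA decay on the left and the 13 of the interferon path on the right, coloured by call. Of the left list 11 rose and 1 fell, and of the right list 5 rose and 4 fell, where 30.7% of all 8205 genes were called higher and 30.6% lower.

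The other cells that such a culture could hold gave few markers. Of 9 neutrophil markers with a named probe, 7 were undetected on every array, among them Mpo, Elane and S100a9. S100a8 rose by 0.36 ± 0.11 and Csf3r fell by 0.50 ± 0.11. The summed signal of this list was 951.2 to 1024 with RI-BPI and 967.1 to 1004 with control. No listed marker of lymphocytes and NK cells (8 with a probe) or of fibroblasts and endothelium (10 with a probe) passed the detection filter, with summed signals of 356.1 to 373.0 and 467.4 to 481.4 with RI-BPI and of 360.1 to 363.4 and 465.3 to 484.4 with control.

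Genes whose profile over the 6 arrays lay closest to that of Cxcl1, by Euclidean distance of mean-centred log2 values, were Flrt3 (0.31), Dnmt3l (0.46) and Mmp13 (0.53). Flrt3, a leucine-rich repeat membrane protein, rose by 3.74 ± 0.11. Closest to Cxcl10 were Stimate (0.13), Zmpste24 (0.14) and Pla2g15 (0.15), with changes of -0.82, -0.80 and -0.84. With 2 groups of 3 arrays this likeness is mostly a like difference between the groups.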

How the data were processed

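Total RNA of 6 samples was labelled with biotin and hybridised to Illumina bead arrays, per the labels' protocols. The authors deposited mean bead intensity per probe and array, not normalized per the file headers, with the detection p-value, bead standard error and bead counts of each probe (median count 45 on every array). The submitters' processing notes name GenomeStudio. A second deposited table, of normalized intensity on a linear scale by an unstated method, served as an alternative.

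Of 45281 probes, 34885 had 1 gene symbol in the platform annotation, 18 had several and 10378 had none. Intensities were corrected with normexp in limma 3.58.1 (R 4.3.3), with the background inferred from detection p-values and an offset of 16, then quantile normalized and put on a log2 scale. This pulls changes of dim probes towards 0. Probes with a detection p under 0.01 on at least 3 of 6 arrays were kept (13975), and the brightest kept probe stood for its gene. RI-BPI was compared with control over all 8205 genes with lmFit and eBayes, two-sided and adjusted over all genes, with no test of the family as a whole. The fit was tested on simulated data. An "at least" fold sets a group undetected on all its arrays at the higher of its own value and the lowest detected value. The genes and lists were chosen with earlier results of these data known. The text names all 9 genes, up to 2 called increases and 2 called decreases per list, and the 3 genes nearest to the members that rose and fell most. Adam17, Zfp36, Zc3h12a, Irf1, Irf9 and Ifnar2 were named outside this rule. The labels do not say whether same-numbered technical replicates belong together. Deviations of same-numbered arrays from their group means correlated at 0.0196, 0.00185 and 0.0304, and the main fit did not pair them. Motifs were taken from general knowledge and searched on both strands.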

Additional observations from a re-analysis of the deposited data

How the results depend on the processing

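Results were compared over 16 alternatives. Among them were no background correction, an offset of 50, median centring, the authors' normalized table and 2 other detection filters. A further setting took the mean of a gene's kept probes. Another fitted all kept probes but read the same brightest ones, so the changes of the CXC chemokines stayed the same there. The rest were the replicate number as a block, each array left out, and a plain background subtraction chosen after seeing the data. In each of the 16 alternatives 4 CXC chemokines were called higher, and 2 or 3 lower. The calls of Cxcl1, Cxcl2, Cxcl9 and Cxcl16, and of Cxcl10 and Cxcl14 at the probe used, held in each. Across them Cxcl1 ranged between 3.30 and 3.83, and Cxcl9 between -0.64 and -0.36. Genes called over the whole array numbered 1988 to 2533 higher and 2095 to 2807 lower. The even split of the main fit, 2517 higher and 2513 lower, depended on the normalization. With median centring it was 1988 higher and 2807 lower, with a median change over all genes of -0.0785 in place of 0.008. Pf4 lost its call with no detection filter (-0.31, adjusted p = 0.0914), where 19057 genes were tested, and with plain background subtraction (-0.31, 0.0726), and leaving out 1 array gave changes between -0.40 and -0.21 (adjusted p of 0.00824 to 0.181). At the dimmer probe, a comparison chosen after seeing the data, Cxcl10 (-0.21) and Cxcl14 (0.27) were not called. The cause was not tested. With the replicate number as a block, an analysis the deviations gave no ground for, Cxcl1 stayed at 3.69 (adjusted p = 1.35e-15), Pf4 at -0.31 (0.0357), no call among the CXC chemokines changed, and 2533 genes were called higher and 2527 lower. Signal over background limits Cxcl3, Cxcl11 and, in part, Cxcl14. The number of cultures behind the 3 arrays of a peptide is not stated, and variation between cultures was not estimated.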
